A study of Mus musculus with 8 samples.

Results

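RANK, the receptor activator of NF-κB encoded by Tnfrsf11a, and 9 genes of macrophage fusion and osteoclast-like differentiation were followed in epididymal white adipose tissue. The 10 genes are Tnfrsf11a, Dcstamp, Ocstamp, Atp6v0d2, Acp5, Ctsk, Gpnmb, Nfatc1, Mitf and Oscar, and all 10 were measured among the 18820 genes of the arrays. They were chosen by name with the difference between these same mice already known, so their values in Sucnr1-/- and WT mice are given as a description, with no test. The mice were 4 Sucnr1-/- and 4 WT males on a C57BL/6 background, all fed a low-fat diet (LFD) for 16 weeks from 8 to 10 weeks of age and killed at 24 to 26 weeks. Sucnr1-/- mice lack the succinate receptor in every tissue, because a lacZ and neo cassette stands in place of much of the exon that encodes it, and WT littermates came from the same heterozygous crosses. RNA of the whole fat pad was hybridised to 1 array per mouse, so fewer macrophages and less RNA per macrophage cannot be told apart. Values are log2 expression, where a difference of 1 is a doubling, and the standard error (SE) of each difference comes from limma fitted over all genes.

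Osteoclasts are bone-resorbing giant cells that form when macrophage precursors fuse. The precursors need macrophage colony-stimulating factor (M-CSF) to survive, and RANK ligand acting on RANK, together with co-stimulation through receptors that pair with ITAM adaptors, switches on the transcription factor NFATc1. NFATc1 and MITF then drive genes for fusion (Dcstamp, Ocstamp, Atp6v0d2) and for resorption (Acp5, Ctsk), as well as the co-receptor gene Oscar. In adipose tissue, macrophages around dying adipocytes take up lipid and can fuse into multinucleate cells, and several of the same genes, Gpnmb and Atp6v0d2 among them, are known from such lysosome-rich macrophages.

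The groups were checked first on the targeted gene. Sucnr1 lay at log2 6.02, 6.05, 5.41 and 7.11 in Sucnr1-/- mice, against 8.68, 8.97, 9.38 and 9.78 in WT mice (exact two-sided permutation p = 0.0286, the smallest that 4 mice against 4 allow), a difference of -3.05 (SE 0.36; limma, adjusted p = 0.321). Array medians lay between 6.28 and 6.36. Of 18820 genes 0 passed limma at a Benjamini-Hochberg adjusted p under 0.05 (0%). Unadjusted, 652 genes were higher (3.46%) and 632 lower (3.36%) in Sucnr1-/- mice, a split that was 355 and 979 with each array centred on the median of its probe sets and 1352 and 330 with each centred on the median of its genes (chosen after seeing the data). The methods' t-test also called 0 genes after adjustment, and unadjusted 686 higher and 561 lower. Macrophage markers, 20 genes, had a lower mean in Sucnr1-/- mice for 18 and a higher one for 2, and their mean level per mouse was 9.74 to 9.92 in Sucnr1-/- mice and 9.90 to 10.23 in WT mice. Immediate early genes, which respond within minutes to handling, were highest in replicate 1 of each genotype (9.28 in Sucnr1-/- and 9.51 in WT mice, against 8.34 to 8.59 and 8.59 to 8.84 in the other mice). Neutrophil markers were also highest in these mice (mean level 8.97 and 7.79, against 5.38 to 6.13 and 5.43 to 6.49). Of 5 measured neutrophil markers 2 had a lower and 3 a higher mean in Sucnr1-/- mice.

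Promoters are shown for the 3 genes with groups that did not overlap for which the RefSeq table (GRCm38.p6) holds a window. Each printed stretch runs from 250 bases before the transcript start to 20 bases after it, plus strand, 5′ to 3′, with motif matches in capitals. The motifs searched on both strands were TCATGTG (the M-box of MITF), CACGTG (the E-box), TGANTCA (AP-1), TGGAAA (NFAT) and GAGGAAG (PU.1), none of which holds another.
Tnfrsf11a, chr1:105780473-105780742: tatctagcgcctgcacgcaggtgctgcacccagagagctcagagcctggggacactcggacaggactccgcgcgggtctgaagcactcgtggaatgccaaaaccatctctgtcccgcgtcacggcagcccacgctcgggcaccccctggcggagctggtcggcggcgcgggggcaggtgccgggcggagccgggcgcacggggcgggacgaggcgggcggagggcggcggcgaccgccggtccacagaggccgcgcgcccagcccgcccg
Ctsk, chr3:95498960-95499229: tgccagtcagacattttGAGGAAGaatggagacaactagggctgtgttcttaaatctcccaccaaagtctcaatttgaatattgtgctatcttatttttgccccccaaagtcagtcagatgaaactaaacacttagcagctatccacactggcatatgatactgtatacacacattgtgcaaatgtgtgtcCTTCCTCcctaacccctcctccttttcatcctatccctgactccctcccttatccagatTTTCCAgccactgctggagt
Gpnmb, chr6:49036268-49036537: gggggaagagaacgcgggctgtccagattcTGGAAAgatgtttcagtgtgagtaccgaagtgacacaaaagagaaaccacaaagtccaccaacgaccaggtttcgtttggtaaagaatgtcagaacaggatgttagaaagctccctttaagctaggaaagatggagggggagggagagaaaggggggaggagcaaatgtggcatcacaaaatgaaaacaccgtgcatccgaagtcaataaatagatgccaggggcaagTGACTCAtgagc
The Tnfrsf11a stretch was 75.2% G or C and held none of the 5 motifs. The Ctsk stretch (44.1% G or C) held the PU.1 letters 2 times, once on each strand, and the NFAT letters in reverse complement at the start itself. The Gpnmb stretch (48.1% G or C) held the NFAT letters near its far end and the AP-1 letters just after the start. The search covered whole windows, which end 50 bases after the start, and 6 of the 10 genes had 10 windows in that table. Of these 10 windows 5 held TGGAAA, 2 GAGGAAG, 1 TGANTCA, 1 TCATGTG and 0 CACGTG. Over all 32851 windows of the table the shares were 21.4% for TGGAAA, 13.6% for GAGGAAG, 7.81% for TGANTCA, 3.77% for TCATGTG and 7.15% for CACGTG. The TCATGTG match lay in a window of Acp5. A match of letters is a description of the sequence alone.

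Among all genes 46.8% had a lower mean in Sucnr1-/- mice. Of the 10 genes 9 had a lower mean and 1 a higher mean, with a median log2 difference of -0.33, against 0.01 over all genes. For 4 of them, Tnfrsf11a, Dcstamp, Ctsk and Gpnmb, every Sucnr1-/- mouse lay below every WT mouse. Over all genes 1.87% were separated in this direction and 2.37% in the other, and since the genes were chosen on this contrast nothing is read from the comparison. With each array centred on the median of its genes the separation was left for Tnfrsf11a and Dcstamp alone, and after quantile normalization for Tnfrsf11a, Dcstamp and Gpnmb. The differences fell into a group of 5 genes between -0.76 and -0.47 (Gpnmb, Dcstamp, Atp6v0d2, Tnfrsf11a and Ctsk) and a group of 5 between -0.19 and 0.10 (Ocstamp, Nfatc1, Acp5, Mitf and Oscar).

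**Figure D1:**
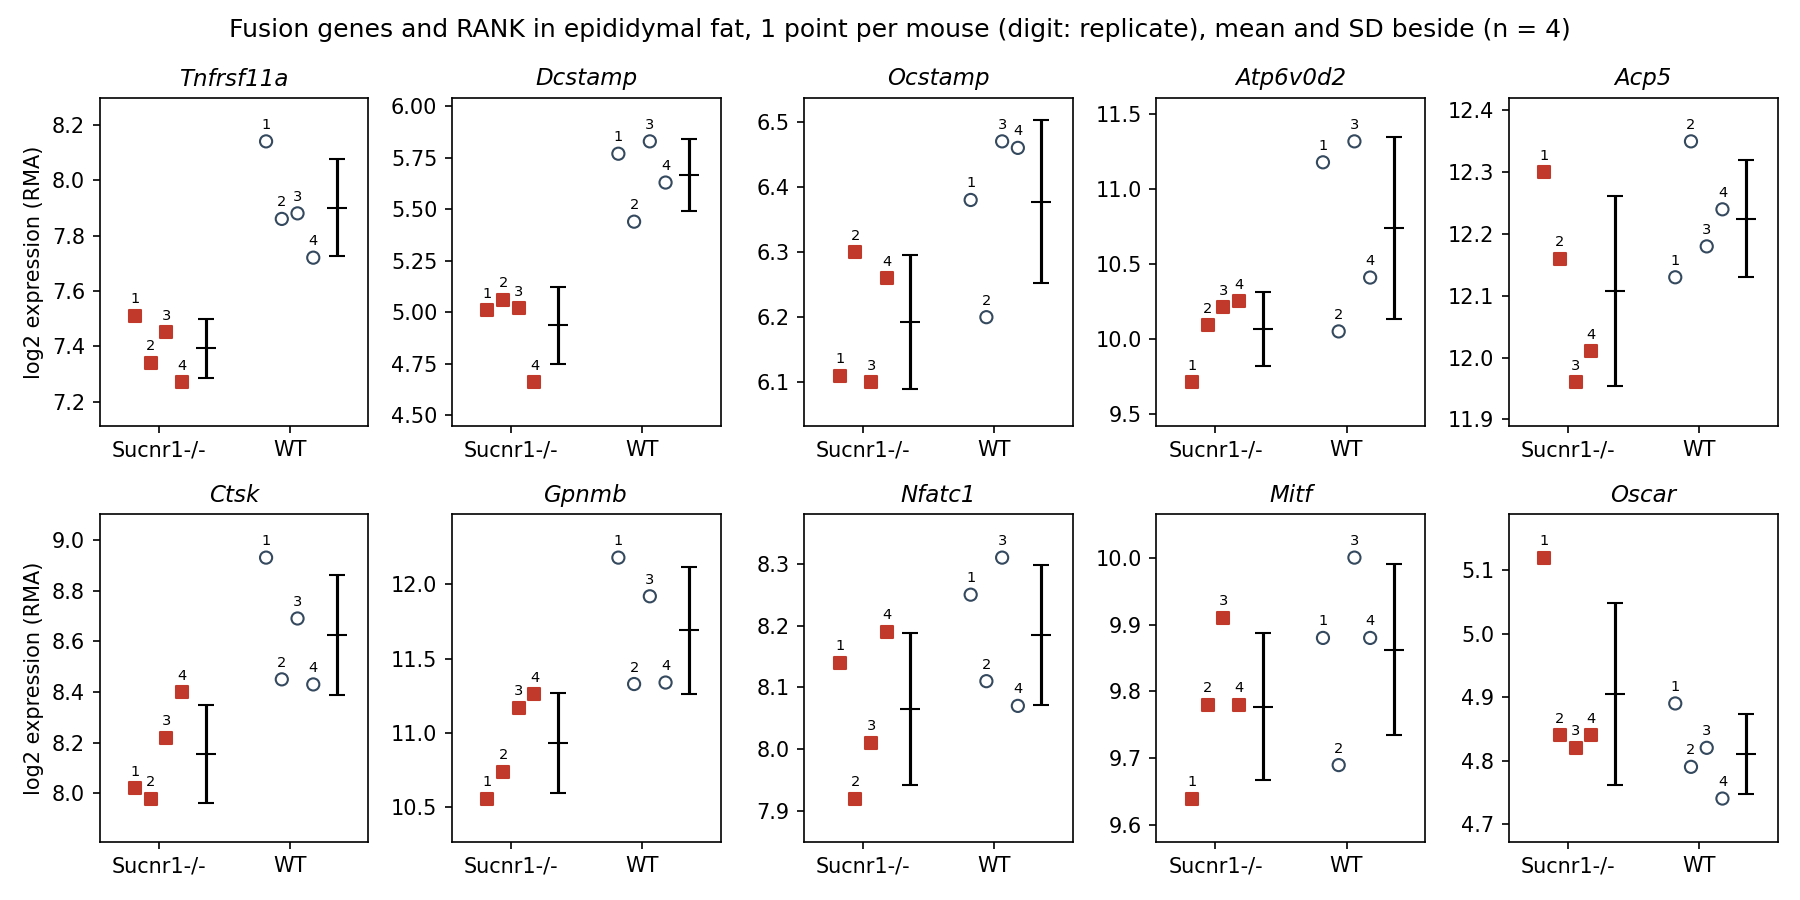
Log2 expression (vertical axes, RMA) of the 10 genes in 4 Sucnr1-/- mice (filled squares) and 4 WT mice (open circles), the digit being the replicate, with the group mean and SD beside the points (n = 4). Each panel has its own axis, so levels are not to be compared between genes, and only Tnfrsf11a, Dcstamp, Ctsk and Gpnmb have no overlap between genotypes.

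The receptor at the head of the pathway was lower in all Sucnr1-/- mice. Tnfrsf11a lay at log2 7.51, 7.34, 7.45 and 7.27 in Sucnr1-/- mice, against 8.14, 7.86, 7.88 and 7.72 in WT mice. The highest Sucnr1-/- mouse was 0.21 below the lowest WT mouse. Means were 7.40 ± 0.11 in Sucnr1-/- mice and 7.90 ± 0.18 in WT mice (SD, n = 4 each), a log2 difference of -0.51 (SE 0.10), or 29.6% lower. Leaving out each mouse in turn moved it between -0.57 and -0.43. Its place among all 18820 genes was 309th from the lowest difference.

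Oscar encodes a collagen receptor of osteoclasts that signals through the ITAM adaptor FcRγ, and it was the 1 gene with a higher mean in Sucnr1-/- mice. It lay at log2 5.12, 4.84, 4.82 and 4.84 in Sucnr1-/- mice, against 4.89, 4.79, 4.82 and 4.74 in WT mice. The groups overlapped, and the difference of 0.10 (SE 0.08) was 0.03 without Sucnr1-/- replicate 1, the one mouse above 5. These values lie below the median of every array (6.28 to 6.36), and the table has no background signal that would show whether the gene was detected.

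The transcription factors of the program differed little. Nfatc1, the master regulator of osteoclast differentiation, lay at log2 8.14, 7.92, 8.01 and 8.19 in Sucnr1-/- mice, against 8.25, 8.11, 8.31 and 8.07 in WT mice. Its difference was -0.12 (SE 0.09), and the lowest WT mouse lay below 2 of the Sucnr1-/- mice. Mitf, which encodes a factor of osteoclasts, mast cells and melanocytes, lay at log2 9.64, 9.78, 9.91 and 9.78 in Sucnr1-/- mice, against 9.88, 9.69, 10.00 and 9.88 in WT mice, a difference of -0.09 (SE 0.08) between overlapping groups. Mitf is the 1 gene of the 10 with a further probe set, a dimmer one, at 3.89, 3.89, 4.08 and 3.70 in Sucnr1-/- mice and 4.14, 3.92, 4.28 and 4.05 in WT mice, which also overlapped (-0.21). Leaving out each mouse in turn gave -0.16 to -0.07 for Nfatc1 and -0.14 to -0.04 for Mitf. Of 8 measured mast cell markers 7 had a lower mean in Sucnr1-/- mice (mean level 6.69 to 7.04, against 7.11 to 7.28 in WT mice), while 5 melanocyte markers were at a mean of 4.85 to 4.96 in Sucnr1-/- and 4.77 to 4.86 in WT mice. The part of mast cells in the values of Mitf was not tested.

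Of the 3 fusion genes Dcstamp had the clearest separation of the genotypes. Dcstamp encodes DC-STAMP, a membrane protein with several transmembrane passes without which mouse osteoclast precursors stay mononuclear. It lay at log2 5.01, 5.06, 5.02 and 4.66 in Sucnr1-/- mice, against 5.77, 5.44, 5.83 and 5.63 in WT mice. The gap between the genotypes, 0.38, was the widest of the 10 genes and matched the range within WT mice, 0.39. Means were 4.94 ± 0.18 in Sucnr1-/- mice and 5.66 ± 0.17 in WT mice (SD, n = 4 each), a difference of -0.73 (SE 0.12), which ranged from -0.80 to -0.63 as each mouse was left out. Like Oscar, Dcstamp lies below the array medians.

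Ocstamp, which encodes the related OC-STAMP protein, behaved less clearly. It lay at log2 6.11, 6.30, 6.10 and 6.26 in Sucnr1-/- mice, against 6.38, 6.20, 6.47 and 6.46 in WT mice. WT replicate 2 fell among the Sucnr1-/- mice, and without it the groups no longer overlapped. The difference was -0.19 (SE 0.08), or 12.1% lower.

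Atp6v0d2 encodes the d2 subunit of the proton pump, which takes part in fusion in mice. It lay at log2 9.71, 10.09, 10.21 and 10.25 in Sucnr1-/- mice, against 11.18, 10.05, 11.32 and 10.41 in WT mice. WT mice were spread over 1.27, more than for any other of the 10 genes, with replicates 1 and 3 about a log2 unit above replicates 2 and 4. Replicate 2 lay among the Sucnr1-/- mice, so the groups overlapped although the mean difference was -0.68 (SE 0.28), and the estimate moved between -0.91 and -0.49 as each mouse was left out. The d1 subunit, encoded by Atp6v0d1 and present in most cells, was at 10.87 ± 0.08 in Sucnr1-/- mice and 10.89 ± 0.07 in WT mice (SD, n = 4 each). Its difference of -0.02 (SE 0.07; limma, adjusted p = 0.929) was 0.02 with each array centred on the median of its genes and 0.01 without Sucnr1-/- replicate 4.

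The enzymes of resorption both had a lower mean in Sucnr1-/- mice, with no overlap of the genotypes for Ctsk and with overlap for Acp5. Ctsk encodes cathepsin K, the collagen-degrading protease of osteoclasts, and it lay at log2 8.02, 7.98, 8.22 and 8.40 in Sucnr1-/- mice, against 8.93, 8.45, 8.69 and 8.43 in WT mice. The groups were apart by 0.02 only, and the difference was -0.47 (SE 0.14), or -0.55 to -0.37 as each mouse was left out. Cathepsin K is also made by fibroblasts, and 4 of 5 measured stromal progenitor markers had a lower mean in Sucnr1-/- mice (mean level 10.28 to 10.60, against 10.42 to 10.68 in WT mice). Their part in the values of Ctsk was not tested. Acp5, which encodes tartrate-resistant acid phosphatase, the classical osteoclast stain, lay at log2 12.30, 12.16, 11.96 and 12.01 in Sucnr1-/- mice, against 12.13, 12.35, 12.18 and 12.24 in WT mice. The groups overlapped, with a difference of -0.11 (SE 0.09), or -0.18 to -0.06 as each mouse was left out, and the 2nd highest of the 8 values belonged to Sucnr1-/- replicate 1.

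Gpnmb had the largest difference of the 10 genes. It encodes a transmembrane glycoprotein, also called osteoactivin, of osteoclasts and of macrophages with a large lysosomal load. Gpnmb lay at log2 10.56, 10.74, 11.17 and 11.26 in Sucnr1-/- mice, against 12.18, 11.33, 11.92 and 11.34 in WT mice. The gap between the genotypes was 0.07, far narrower than the range within WT mice, 0.85, or within Sucnr1-/- mice, 0.70. Means were 10.93 ± 0.34 in Sucnr1-/- mice and 11.69 ± 0.43 in WT mice (SD, n = 4 each), a difference of -0.76 (SE 0.23), or 40.9% lower. It was the 90th lowest difference of 18820, with Dcstamp 110th, Atp6v0d2 141st and Ctsk 361st.

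The 10 genes did not follow the same mice. The highest of the 8 mice was WT replicate 1 for 3 genes and WT replicate 3 for 5, and the lowest was a Sucnr1-/- mouse for 9. Averaged over the 10 genes, the deviation from the mean of the 8 mice was -0.22, -0.21, -0.14 and -0.14 in Sucnr1-/- mice, against 0.34, 0.00, 0.31 and 0.06 in WT mice. Gpnmb, Atp6v0d2 and Ctsk shared high values in WT replicates 1 and 3, which also had the highest macrophage marker means (10.23 each). Dcstamp (0.47 and 0.52) and Tnfrsf11a (0.50 and 0.23) had their highest deviations in WT replicates 1 and 3 as well. In WT replicates 2 and 4 the deviations were 0.14 and 0.33 for Dcstamp and 0.21 and 0.07 for Tnfrsf11a. Among Sucnr1-/- mice Gpnmb and Atp6v0d2 were lowest in replicate 1, whereas Dcstamp and Tnfrsf11a were lowest in replicate 4. Without both replicates numbered 1, a choice made after seeing the data, the difference was -0.71 for Dcstamp, -0.46 for Tnfrsf11a, -0.47 for Gpnmb, -0.42 for Atp6v0d2 and -0.32 for Ctsk. Atp6v0d2, at -0.42 in place of -0.68, and Gpnmb, at -0.47 in place of -0.76, were the most dependent on these mice.

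**Figure D2:**
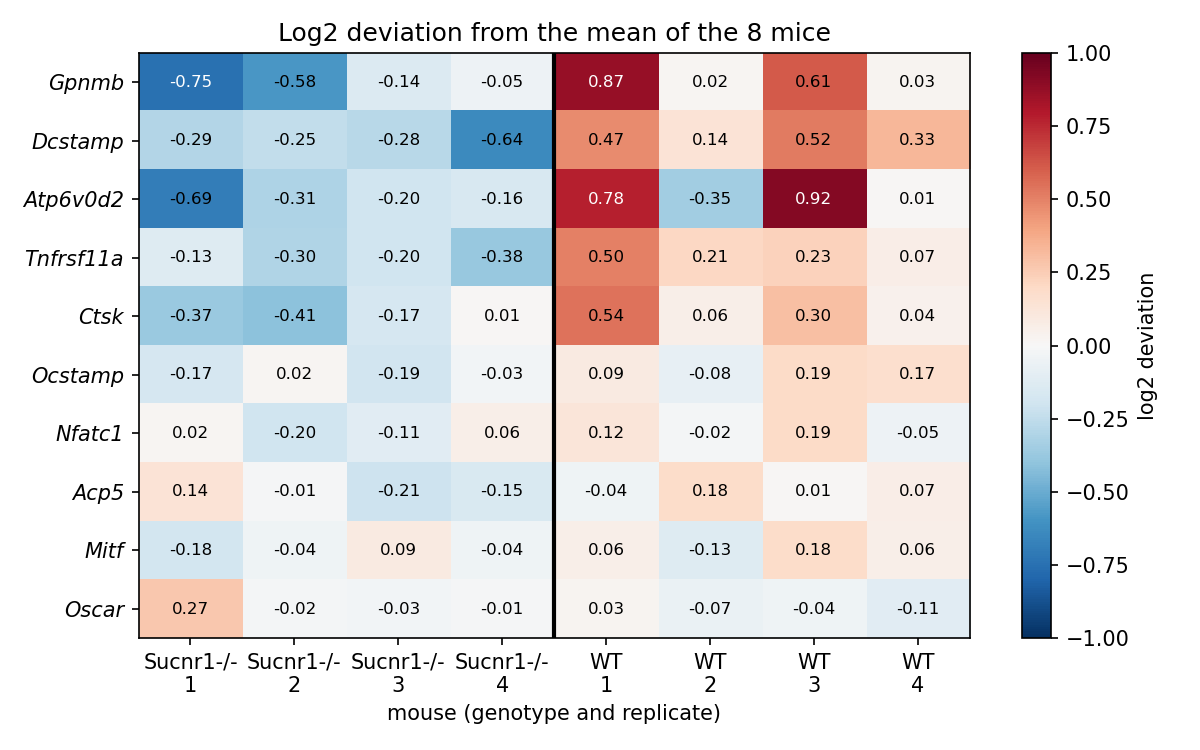
Log2 deviation of each gene (rows) from its mean over the 8 mice, for 4 Sucnr1-/- mice (left of the line) and 4 WT mice (right), with red for higher and blue for lower values. WT replicates 1 and 3 hold the strongest red cells, 0.87 and 0.61 for Gpnmb and 0.78 and 0.92 for Atp6v0d2, whereas WT replicate 2 is at 0.02 and -0.35 for these genes.

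Each gene was also set against the macrophage markers by subtracting the mean of the 20 markers in each mouse, a mean that itself differed by -0.25. Tnfrsf11a then differed by -0.25 and Dcstamp by -0.47, and for both genes every Sucnr1-/- mouse still lay below every WT mouse. The closest values were -2.39 (Sucnr1-/- replicate 2) and -2.35 (WT replicate 3) for Tnfrsf11a, and -4.68 and -4.56 (replicate 2 of each genotype) for Dcstamp. The share of all genes separated after the subtraction was not counted, so nothing is read from this. Dcstamp also lies below every array median, and its detection is not shown. Gpnmb differed by -0.51, Atp6v0d2 by -0.43 and Ctsk by -0.22, with overlapping groups. The remaining genes were above 0, with 0.07 for Ocstamp (0.00 without Sucnr1-/- replicate 2), 0.13 for Nfatc1, 0.14 for Acp5 and 0.17 for Mitf, all with overlap. Oscar was at 0.35, and every Sucnr1-/- mouse lay above every WT mouse after the subtraction only. Before it Oscar differed by 0.10 with overlapping groups, at values below every array median, and its detection is not shown. Without both replicates numbered 1, Gpnmb, Atp6v0d2 and Ctsk came closer to the markers, and these relative differences were -0.24 for Tnfrsf11a, -0.49 for Dcstamp, -0.24 for Gpnmb, -0.19 for Atp6v0d2 and -0.09 for Ctsk, and Acp5 was at 0.02. Markers of lipid-associated macrophages had a lower mean in Sucnr1-/- mice for 8 of 11 genes (mean level 11.13 to 11.27, against 11.25 to 11.62 in WT mice). The 12 genes listed for them include Lpl, Plin2, Cd36 and Fabp4, and the paper used Fabp4 to check its adipocyte fraction. The RNA came from the whole fat pad, and the part of adipocytes in this mean level was not tested. The part of macrophage number in the differences was not tested. Markers of osteoblasts and bone were at a mean of 4.97 to 5.05 in Sucnr1-/- and 4.91 to 5.02 in WT mice, all below the array medians.

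**Figure D3:**
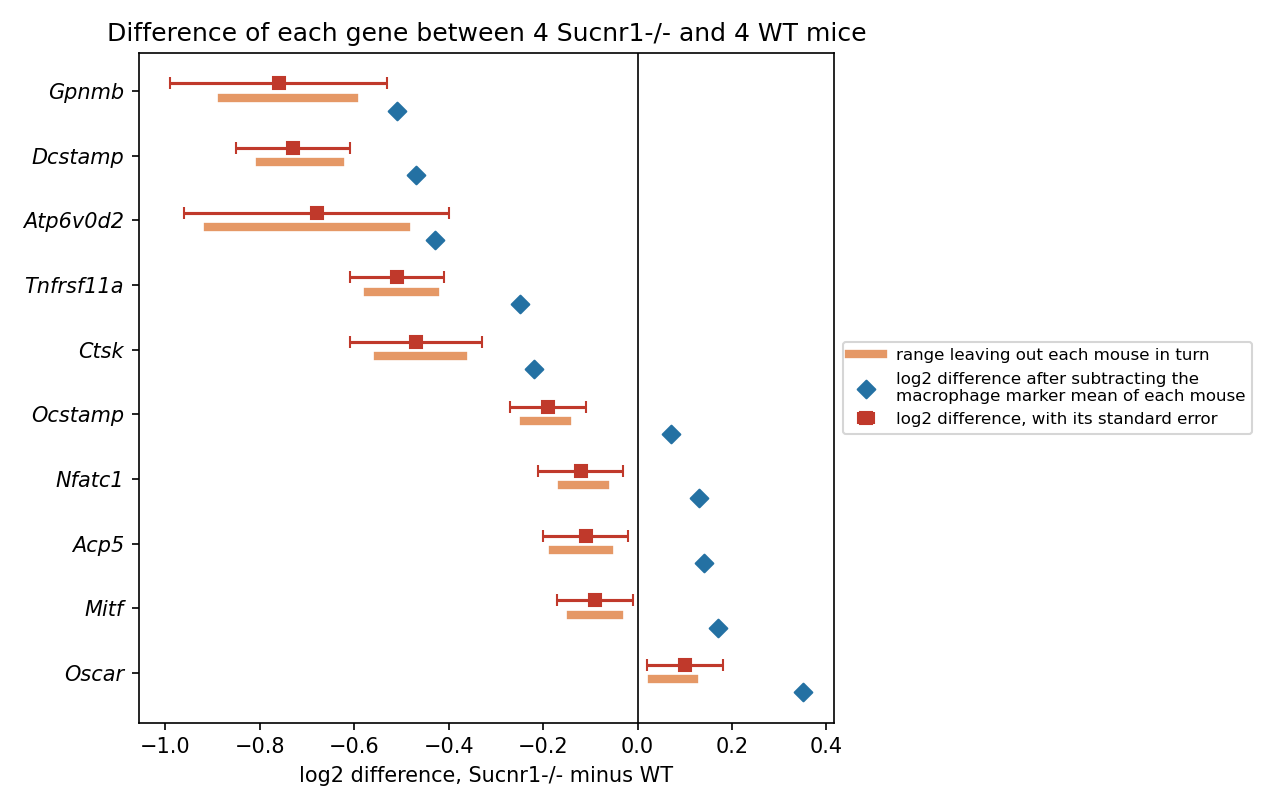
Log2 difference of each gene, Sucnr1-/- minus WT (horizontal axis), as squares with the SE (n = 4 mice each), with bars for the range as each mouse is left out and diamonds for the difference after subtracting the macrophage marker mean of each mouse. Of the 9 squares left of 0, 5 keep their diamond left of 0 (Gpnmb, Dcstamp, Atp6v0d2, Tnfrsf11a and Ctsk).

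Around the 10 genes, 7 lists of the osteoclast pathway with 92 of 100 listed genes measured were taken from textbook knowledge. The lists were chosen with earlier results of these data known, so nothing is read from comparing their shares with those of all genes. With p-values adjusted over the whole array, limma called 0 of the 92 and the methods' t-test 0. At an unadjusted p under 0.05 limma gave 17 lower (18.5%, against 3.36% of all genes) and 2 higher (3.46% of all genes) in Sucnr1-/- mice, and the methods' t-test 9 and 2. The 17 were 23 without Sucnr1-/- replicate 1, 5 without Sucnr1-/- replicate 2, 11 without Sucnr1-/- replicate 3, 9 without Sucnr1-/- replicate 4, 7 without WT replicate 1 and 8 without WT replicate 3. They were 11 after quantile normalization, 7 with each array centred on the median of its genes, 21 with each centred on the median of its probe sets and 31 with the replicate number as a block. Of the 92 genes 80 had a lower mean (46.8% of all genes did), with a median difference of -0.17, against 0.01 over all genes. This count depends on the centring, since some of the 80 differences were close to none.

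The genotypes overlapped for both the ligand and the decoy receptor of RANK. Tnfsf11, which encodes RANK ligand, lay at log2 6.49, 6.49, 6.44 and 6.44 in Sucnr1-/- mice, against 6.35, 6.46, 6.22 and 6.47 in WT mice, a difference of 0.09 (SE 0.07; limma, adjusted p = 0.768). Tnfrsf11b, which encodes the decoy receptor osteoprotegerin, lay at 8.12, 8.23, 8.44 and 8.35 in Sucnr1-/- mice, against 9.16, 9.13, 8.71 and 8.01 in WT mice. WT replicate 4 was the lowest of all mice there, and the difference was -0.47 (SE 0.23; limma, adjusted p = 0.725), or -0.71 without that mouse. Traf6, the adaptor that RANK recruits, was at -0.15 (SE 0.07; limma, adjusted p = 0.719). Of the 16 measured genes of this list 13 had a lower mean. At an unadjusted p under 0.05 there were 2 lower, the adaptor Traf5 at -0.32 (SE 0.08) and the p38α kinase gene Mapk14 at -0.16 (SE 0.07), against 3.36% of all genes.

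The M-CSF axis pointed both ways. Il34, which encodes the other ligand of the M-CSF receptor, lay at log2 8.36, 8.60, 8.49 and 8.57 in Sucnr1-/- mice, against 8.11, 8.15, 8.35 and 8.31 in WT mice. Every Sucnr1-/- mouse was above every WT mouse, by 0.01 at the closest, and the difference was 0.27 (SE 0.08; limma, adjusted p = 0.712). Csf1, which encodes M-CSF, spread widely and was highest in replicate 1 of each genotype (11.10 in Sucnr1-/- and 11.19 in WT mice). These are the same mice in which immediate early genes and neutrophil markers were highest. The Csf1 difference of -0.34 (SE 0.52) ran from -0.73 without WT replicate 3 to -0.03 without WT replicate 1 or Sucnr1-/- replicate 4. Its receptor gene Csf1r was at -0.24 (SE 0.13), or -0.15 without WT replicate 3, and Spi1, which encodes the macrophage factor PU.1, at -0.38 (SE 0.16). Spi1 too was highest in replicate 1 of each genotype (10.26 in Sucnr1-/- and 10.66 in WT mice). Of 7 genes 4 had a lower and 3 a higher mean.

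The co-stimulatory branch had the lowest list median, -0.33. Of 15 genes 13 had a lower mean, 3 of them with an unadjusted p below 0.05, a level that 3.36% of all genes reached in this direction. The 3 were the kinase gene Tec at -0.56 (SE 0.20), the adaptor gene Blnk at -0.57 (SE 0.24) and Fcer1g, which encodes the FcRγ partner of OSCAR, at -0.35 (SE 0.14; limma, adjusted p = 0.712). Trem2, which encodes a lipid-sensing receptor of macrophages and osteoclasts, lay at log2 8.77, 9.13, 9.47 and 9.30 in Sucnr1-/- mice, against 10.18, 9.07, 10.18 and 9.55 in WT mice. As for Atp6v0d2, WT replicates 1 and 3 were highest and WT replicate 2 lay among the Sucnr1-/- mice, and the difference was -0.58 (SE 0.26; limma, adjusted p = 0.719). Its adaptor gene Tyrobp was at -0.33 (SE 0.16). WT replicates 1 and 3 were also those with the highest macrophage marker means (10.23 each), and the part of macrophage number in these values was not tested. Blnk is also a B cell gene, and all 5 measured B cell markers had a lower mean in Sucnr1-/- mice, with a median difference of -0.96. Their mean level was 5.74 to 7.18 in Sucnr1-/- mice and 6.38 to 8.56 in WT mice, again highest in WT replicates 1 (8.56) and 3 (7.63), and their part was not tested.

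Transcription factors and repressors gave no single picture. Jun, a subunit of AP-1, lay at log2 10.46, 10.42, 10.31 and 10.33 in Sucnr1-/- mice, against 10.23, 10.18, 9.93 and 10.07 in WT mice. Every Sucnr1-/- mouse was above every WT mouse (difference 0.28, SE 0.08; limma, adjusted p = 0.712), and Jun was highest in replicate 1 of each genotype. Fos, its partner, was at -0.68 (SE 0.31) with overlapping groups, and at -0.43 without WT replicate 1 and -0.45 without Sucnr1-/- replicate 4. Fos was highest in replicate 1 of each genotype (7.28 in Sucnr1-/- and 8.20 in WT mice), the same mice in which immediate early genes and neutrophil markers were highest. Of 10 immediate early markers 9 had a lower mean in Sucnr1-/- mice (median difference -0.26). The part of handling or of neutrophils in Fos and Jun was not tested. Among the relatives of Mitf, Tfe3 was at -0.21 (SE 0.09), Tfec at -0.59 (SE 0.56) and Tfeb at 0.05 (SE 0.06), and Tfec was highest in replicate 1 of each genotype (8.94 in Sucnr1-/- and 9.37 in WT mice). Its difference was -1.07 without Sucnr1-/- replicate 1, -0.29 without Sucnr1-/- replicate 4 and -0.16 without WT replicate 1. All 8 measured repressors of osteoclast differentiation had a lower mean, none at an unadjusted p under 0.05. Among them Irf8, which holds precursors in the macrophage state, was at -0.28 (SE 0.21), or -0.08 without WT replicate 1, the ubiquitin-editing enzyme gene Tnfaip3 at -0.34 (SE 0.18), Id2 at -0.35 (SE 0.19) and the deubiquitinase gene Cyld at -0.15 (SE 0.09). Tnfaip3 was at -0.22 without WT replicate 1, Id2 at -0.54 without Sucnr1-/- replicate 1 and Cyld at -0.09 without WT replicate 4. Like Fos, the genes Irf8, Tnfaip3 and Id2 were highest in replicate 1 of each genotype. The median of these repressors was -0.31.

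In the values as deposited, the machinery of fusion and resorption was lower in mean almost throughout. Of 18 adhesion and fusion genes 16 had a lower mean, 3 of them with an unadjusted p below 0.05. Adam8, which encodes a membrane protease, was at -0.73 (SE 0.26) and was highest in replicate 1 of each genotype (9.47 in Sucnr1-/- and 10.22 in WT mice). The integrin gene Itgav was at -0.17 (SE 0.06) and Sirpa, which encodes the receptor for CD47, at -0.27 (SE 0.11). All 16 measured genes of acid secretion and matrix resorption had a lower mean, 7 of them with an unadjusted p below 0.05, a level that 3.36% of all genes reached in this direction. Some differences were close to none, such as -0.01 for Calcr, -0.02 for Atp6v0d1 and -0.04 for Snx10. With each array centred on the median of its genes Atp6v0d1 was at 0.02, so the count of 16 depends on the centring. Tcirg1, which encodes the osteoclast-enriched a3 subunit of the proton pump, lay at log2 9.46, 9.39, 9.42 and 9.45 in Sucnr1-/- mice, against 10.21, 9.61, 9.95 and 9.62 in WT mice. The genotypes did not overlap, and Sucnr1-/- mice were spread over 0.06 only, against 0.61 in WT mice (difference -0.42, SE 0.13; limma, adjusted p = 0.712). Clcn7, which encodes the chloride-proton exchanger that works beside the pump, was at -0.22 (SE 0.07), and the pump subunit gene Atp6v1b2 at -0.24 (SE 0.08), both without overlap. The median difference was -0.19 for each of these lists, and -0.24 for the macrophage markers, of which 18 of 20 had a lower mean in the same mice (9.74 to 9.92 in Sucnr1-/- mice and 9.90 to 10.23 in WT mice), and their part in these values was not tested.

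**Figure D4:**
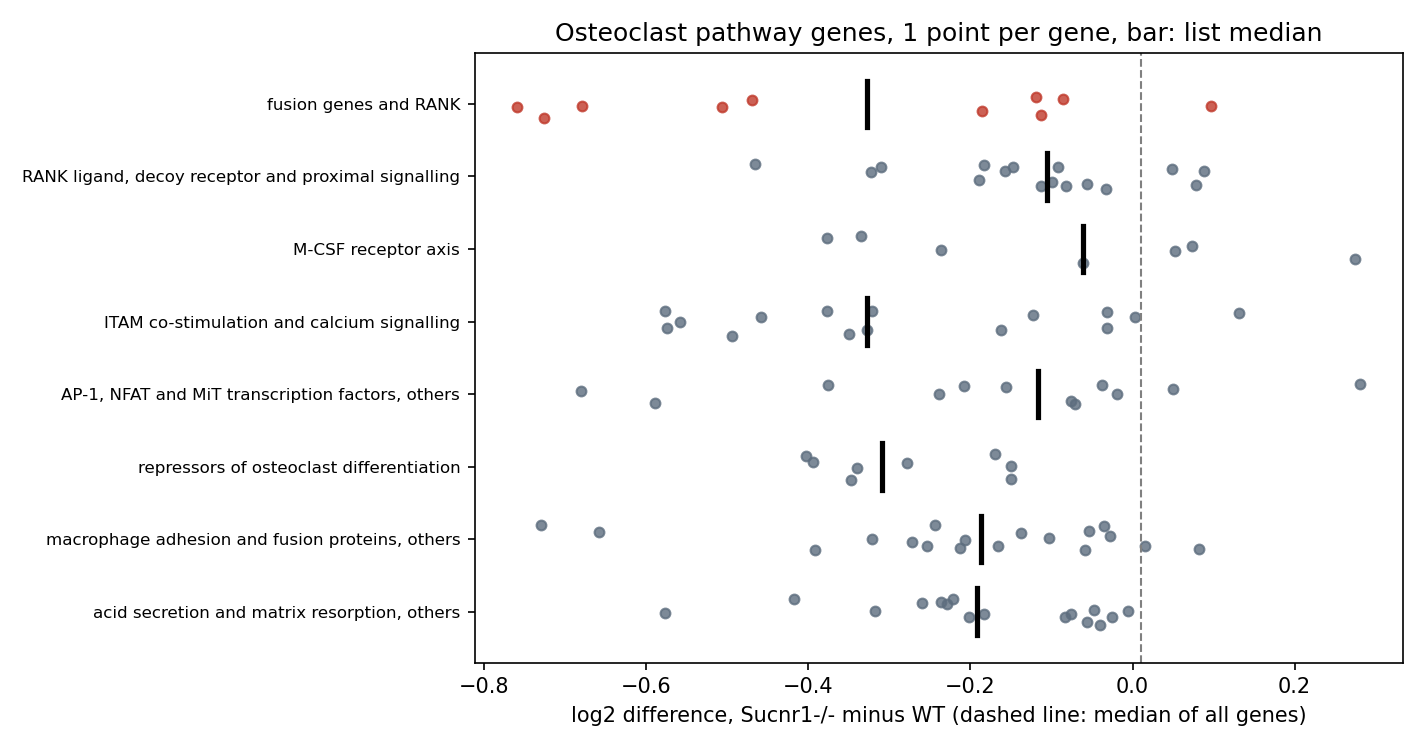
Log2 difference of single genes, Sucnr1-/- minus WT (horizontal axis), 1 point per gene, for the 10 fusion genes and RANK (top row, red) and 7 lists of the osteoclast pathway (grey), with bars at list medians and a dashed line at the median of all genes, 0.01. List medians lie between -0.33 and -0.06, with the top row and the ITAM list both at -0.33.

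Genes were ranked by Pearson r with Tnfrsf11a over the 8 arrays, leaving out the genes of the set and some classes of symbol. These classes were predicted or unnamed genes (Gm, Rik, LOC), olfactory and vomeronasal receptors, and immunoglobulin and T cell receptor segments. The 5 highest genes kept began with Yeats4 (r = 0.990), which encodes a chromatin reader, and Ppp4c (r = 0.969), the catalytic subunit of protein phosphatase 4. Next came Rpf1 (r = 0.968), a ribosome production factor, and Pi4k2a (r = 0.967), a phosphatidylinositol kinase of endosomes. The last was Krtcap2 (r = 0.964), a subunit of the oligosaccharyltransferase. These 5 genes were picked for high r among the genes kept, and the genotypes are apart in all of them. For both reasons r is a description without a test. With the mean of each genotype removed, r was 0.971 for Yeats4 and 0.803 to 0.939 for the others. Yeats4 lay at log2 8.99, 8.93, 8.96 and 8.91 in Sucnr1-/- mice, against 9.22, 9.12, 9.12 and 9.02 in WT mice, in the same order of mice as Tnfrsf11a and with a difference of -0.18 (SE 0.06). Of the other 9 genes of the set the most alike was Dcstamp, with r = 0.912, or 0.508 with the genotype means removed. Gpnmb had r = 0.788 and 0.389 in the same way, and Oscar -0.141 and 0.657.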

How the data were processed

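Epididymal fat RNA of 8 mice was measured on Affymetrix Mouse Gene 1.1 ST arrays. The authors deposited log2 values from RMA, which corrects background, normalizes arrays together and summarises probes, so total signal is already equalised. The RMA version, genome build and scan dates: not given in the sources used here. No batch could be examined. Of 35556 probe sets 21218 had exactly 1 gene symbol, 1881 several and 12457 none in the annotation used. The first kind was kept, 21185 matched RefSeq by Entrez ID, and the brightest mean probe set stood for a gene (18820 genes). Limma 3.58.1 in R 4.3.3 compared 4 Sucnr1-/- with 4 WT mice over all genes with Benjamini-Hochberg adjustment, and was tested on simulated data. The number of arrays limits precision.

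The 10 genes, the lists and the tests were chosen with earlier results of these data known. Named genes are the 10, Sucnr1, 11 key pathway genes and up to 3 genes per pathway list of smallest unadjusted p. The 5 genes most like Tnfrsf11a, among the symbols kept for that ranking, are also named. Alternatives were median centring, quantile normalization, leaving out the 40% of dimmest genes, the mean of probe sets, the replicate number as a block, an intensity-dependent prior, array weights, the methods' t-test and leaving out each mouse. Centring on the median of the genes and leaving out both replicates numbered 1 were added after seeing the data. Listed genes without a value are not analysed here. Python 3.11.15 and matplotlib 3.10.9 made the figures.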

Additional observations from a re-analysis of the deposited data

Results flagged for a closer look

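In 5 of 92 groups of 4 mice, from the named genes, 1 mouse lay apart from the other 3 by most of the range of its group (Dixon's ratio, at its critical value for 4 values), and chance alone gives about 1 in 20 groups. Sucnr1-/- replicate 4 was at log2 4.66 for Dcstamp, against 5.01 to 5.06 in the other Sucnr1-/- mice. Sucnr1-/- replicate 1 was at 5.12 for Oscar (4.82 to 4.84 in the others) and at 9.46 for Ppp4c (9.18 to 9.22 in the others). WT replicate 3 was at 8.20 for Tfeb (8.01 in the others), and WT replicate 1 at 11.10 for Id2 (10.68 to 10.74 in the others).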

How the results depend on the processing

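Each of the 10 genes kept the sign of its difference under every alternative in which it was measured (the 40% filter left out Dcstamp and Oscar), and their median ranged from -0.38 to -0.28 as each mouse was left out. The 0 adjusted calls over all genes and among pathway genes were 0 under every alternative. The 4 genes without overlap were 2 with each array centred on the median of its genes. As each mouse was left out they were 4 to 6 (6 without WT replicate 2). Leaving out a mouse cannot make separated groups overlap, so this count could not fall and shows no stability. It takes separation in either direction, and the 5 without WT replicate 1 included Oscar, which was higher in Sucnr1-/- mice. Of 632 genes lower and 652 higher at an unadjusted p under 0.05, centring on all probe sets gave 979 and 355, and centring on genes 330 and 1352. The 40% filter gave 369 higher. As each mouse was left out there were 368 (without Sucnr1-/- replicate 2) to 885 lower and 440 to 870 higher. Pathway genes lower at that level, 17, were 11 after quantile normalization, 7 with centring on genes, 9 with the methods' t-test and 5 to 23 as each mouse was left out. Atp6v0d1 changed sign at 0.02 with centring on genes and ranged from -0.05 to 0.01 as each mouse was left out. Relative to macrophage markers Ocstamp ranged from 0.00 to 0.16 as each was left out (0.00 without Sucnr1-/- replicate 2). Under a replicate block there were 1096 genes and 31 pathway genes lower, and 809 genes higher. Deviations of same-numbered mice correlated at 0.454, 0.141, 0.106 and 0.0148, so 3 of 4 passed 0.1, and no label ties a number to a litter or day. The numbers were not taken as a pairing, which these values do not settle, and 2 of 4 Sucnr1-/- mice correlated best with the WT mouse of their number. The causes were not tested. No value here shows detection of the dimmest genes, Dcstamp and Oscar.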
